A study of Solanum tuberosum with 9 samples.

Results

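Stolons of the potato variety Kexin 13 grown with too little or too much nitrogen were set against stolons grown with the conventional amount, to find transcripts that stand on the same side of the conventional level at both extremes. The 6 libraries of the extremes were 3 from nitrogen deficiency (AN0) and 3 from nitrogen excess (AN2), and the reference was the 3 libraries from conventional nitrogen (AN1), so all 9 libraries of the series entered. Members were taken by treatment label, and the contrast was the mean of the AN0 and AN2 log2 levels minus the AN1 log2 level. All plants shared 1 variety and 1 tissue. The labels give no nitrogen rate, sampling date or stolon stage, and it is not stated that the replicates are separate plants or pots. What the p-values weigh is thus the spread among the sequenced libraries, some of it perhaps technical.

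Stolons are underground shoots whose tips swell into tubers when conditions favour it. Nitrogen reaches the plant largely as nitrate, is reduced by nitrate and nitrite reductase, and enters amino acids through glutamine synthetase, while amino acid permeases and urea breakdown redistribute it. A high nitrogen supply is known to delay tuber formation in potato and a low supply to limit growth. Starch and the storage protein patatin accumulate as the stolon tip becomes a tuber.

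The libraries held between 30952622 and 38235348 counts, and 21223 of the 25702 genes in the table had enough counts to be tested. Libraries of a treatment correlated across genes with r between 0.885 and 0.974 on the log2 scale, where genes are not independent replicates. The stolon label was checked against storage and green tissue transcripts. All 6 storage protein and protease inhibitor genes were detected in all 9 libraries. Their summed level was 8489 to 46527 CPM in AN0, 1558 to 46715 CPM in AN2 and 32302 to 41784 CPM in AN1, where CPM is counts scaled to a common library total after TMM normalization. The 7 photosynthesis genes summed to 22.8 to 747 CPM in AN0, 72.1 to 569 CPM in AN2 and 10.1 to 60.3 CPM in AN1. The libraries AN0-1 and AN2-3 stood apart, with the highest photosynthesis sums and the lowest storage sums of their treatments, and AN2-1 also had a low storage sum of 13550 CPM. Results that rest on these libraries are given with and without them.

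**Figure D1:**
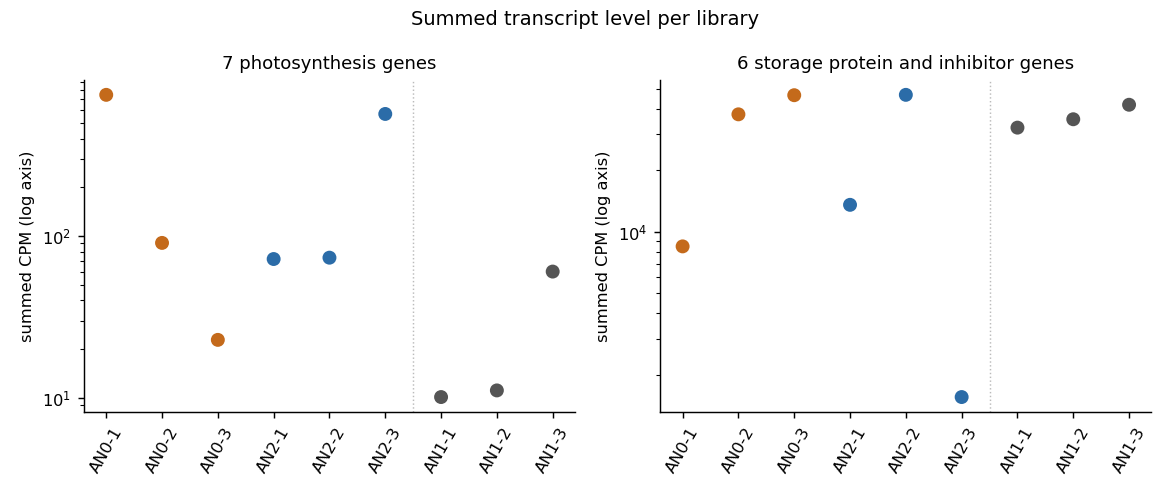
Summed transcript level per library, in CPM on a log axis, of 7 photosynthesis genes (left) and 6 storage protein and inhibitor genes (right), with 1 point per library. AN0-1 and AN2-3 hold the highest photosynthesis sums, 747 and 569 CPM, and low storage sums, 8489 and 1558 CPM, while the AN1 storage sums lie between 32302 and 41784 CPM.

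No gene passed the test for the extremes together against AN1. The quasi-likelihood test of edgeR called 0 of 21223 genes (0%) at an adjusted p under 0.05, and the smallest adjusted p was 0.154. At an unadjusted p under 0.05 there were 1888 genes (8.9%), of which 1278 were higher in the extremes (6.02%) and 610 lower (2.87%). On the same counts DESeq2 called 488 genes (2.3%), 391 higher (1.84%) and 97 lower (0.457%), and limma voom with library quality weights called 1274 genes (6%), 669 higher (3.15%) and 605 lower (2.85%). Of the DESeq2 calls, 387 were also called by voom. The median standard error of a log2 fold change was 0.32 for the extremes against AN1, and the median absolute log2 fold change was 0.24. The count of 0 in edgeR held in each leave-one-out, where the smallest adjusted p was 0.0726 (AN2-2 left out). It also held with AN0-1 and AN2-3 both left out. The genes described next are mainly those with a name, and genes known by number alone held the smallest p-values.

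**Figure D2:**
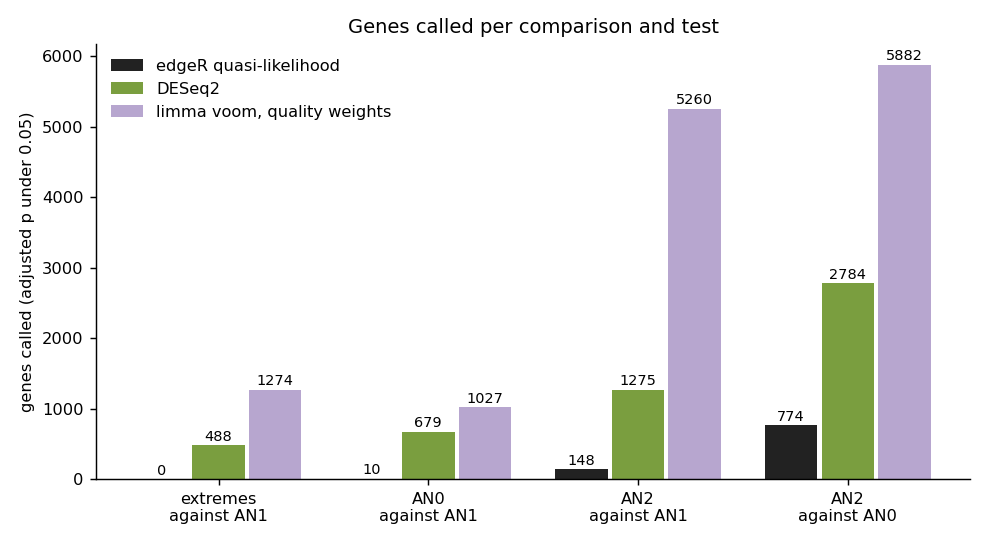
Number of genes called at an adjusted p under 0.05 in each comparison (horizontal axis) by edgeR, DESeq2 and limma voom with quality weights (bars, linear axis from 0). For the extremes against AN1 the counts are 0, 488 and 1274, and for AN2 against AN0 they are 774, 2784 and 5882.

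The direct comparison of the extremes gave more calls than the contrast of both with AN1. In edgeR, 774 genes differed between AN2 and AN0 (3.65%), 498 higher in AN2 (2.35%) and 276 lower (1.3%). Against AN1, 10 genes were called in AN0 (0.0471%), 8 higher (0.0377%) and 2 lower (0.00942%), and 148 in AN2 (0.697%), 137 higher (0.646%) and 11 lower (0.0518%). DESeq2 called 679 genes in AN0 (3.2%) and 1275 in AN2 (6.01%) against AN1, and 2784 between AN2 and AN0 (13.1%). Voom called 1027 genes in AN0 (4.84%) and 5260 in AN2 (24.8%) against AN1, and 5882 between AN2 and AN0 (27.7%). The comparisons of AN0 and AN2 with AN1 share the AN1 libraries. Called in both of them in 1 direction were 0 genes in edgeR (0%), 99 in DESeq2 (0.466%) and 228 in voom (1.07%). The DESeq2 genes comprised 74 higher and 25 lower at both extremes, and 37 further genes were called in opposite directions. The counts depended on single libraries. For AN0 against AN1, edgeR called 0 genes without AN0-1, AN0-2, AN2-1, AN1-1, AN1-2 or AN1-3, 5 without AN2-2, 35 without AN2-3 and 109 without AN0-3. Against AN1 it called, in AN2, 0 without AN2-1, AN1-1 or AN1-3, 1 without AN2-3 or AN1-2, 10 without AN0-2, 96 without AN0-3 and 367 without AN2-2. Between AN2 and AN0 it called 110 without AN0-2, 155 without AN2-1, 276 without AN1-3, 312 without AN2-3, 350 without AN1-1, 378 without AN0-1 and 490 without AN1-2. Called at both extremes in 1 direction were 2 genes without AN0-3 (LOC102591561 and LOC102591987) and 1 without AN2-2 (LOC102590518), named here after their values were seen.

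The shape of the response was also counted without a test. The AN1 mean lay between the AN0 and AN2 means in 9416 genes (44.4%), below both in 6296 (29.7%) and above both in 5511 (26%). All 6 libraries of the extremes were above all 3 AN1 libraries in 517 genes (2.44%) and below all of them in 349 (1.64%), together 866 genes (4.08%). With fewer libraries to separate, these counts were 875 and 844 without AN0-1 and AN2-3, 866 and 675 without AN1-2, and 853 and 699 without AN1-3, and the second was 618 without AN2-2. A log2 difference from AN1 of at least 1 at both extremes was found in 692 genes on the higher side (3.26%) and 120 on the lower side (0.565%), and 408 genes had such a difference in opposite directions (1.92%). An unadjusted edgeR p under 0.05 at both extremes was found in 326 genes higher at both (1.54%), 98 lower at both (0.462%) and 183 in opposite directions (0.862%).

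A gene name was available for 451 of the tested genes. Among these, 57 (12.6%) had an unadjusted p under 0.05 for the extremes against AN1, beside 8.9% of all tested genes. Of the 57, 47 were higher (10.4% of named genes, beside 6.02%) and 10 lower (2.22%, beside 2.87%). Of the 10 named genes with the smallest p, 9 are described here, VPE2, PLC1, STUGE51, aap1, ureG, POTH15, HPL, ivd1 and pp34. None of the 9 was called by edgeR. All 9 were called higher by DESeq2 and by voom, beside 1.84% and 3.15% of all tested genes. In 7 of them every library of the extremes was above every AN1 library (2.44% of all), and HPL and pp34 overlapped with AN1. The 9 were picked by their edgeR p for this contrast on the same counts. Their other calls and their lack of overlap thus largely follow from the choice and are not separate support.

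Genes of nitrogen handling stood among them. The amino acid permease gene aap1 (LOC102597666), whose product carries amino acids across the plasma membrane, had 19.8, 20.4 and 19.4 CPM in AN0, 20.6, 15.5 and 31.9 CPM in AN2, and 7.52, 10.7 and 8.34 CPM in AN1. The lowest library of the extremes, AN2-2, was still above the highest AN1 library. Its log2 fold change was 1.26 ± 0.25 (SE) for the extremes against AN1, with an edgeR adjusted p of 0.227 and a DESeq2 adjusted p of 0.000532. Against AN1 its log2 fold change was 1.17 in AN0 and 1.36 in AN2, and the extremes differed from each other by 0.19 ± 0.27. The gene was 1 of the 2 named genes that DESeq2 called at both extremes, with adjusted p of 0.00712 in AN0 and 0.000538 in AN2. These 2 were among 451 named genes tested. Over all tested genes, 99 of 21223 (0.466%) were called so, a share close to that of the named genes.

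The gene ureG (LOC102586140) encodes an accessory protein that loads nickel into urease, the enzyme that frees ammonium from urea. Its levels were 79.9, 46.4 and 78.1 CPM in AN0, 79.1, 66.8 and 74 CPM in AN2, and 38, 27.9 and 43.4 CPM in AN1. The groups did not overlap, although AN0-2 came within a few CPM of AN1-3. The log2 fold change was 0.96 ± 0.23 (SE), with an edgeR adjusted p of 0.295 and a DESeq2 adjusted p of 0.0163. Each extreme was close to a doubling of the AN1 level, with log2 fold changes of 0.90 in AN0 and 1.01 in AN2. Urease itself (LOC102582144) averaged 34.9 CPM in AN0, 24.5 CPM in AN2 and 18 CPM in AN1, a log2 fold change of 0.70 ± 0.32 with overlap between the groups.

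All 8 tested genes of nitrogen uptake and assimilation had a positive log2 fold change for the extremes against AN1, with a median of 1.08 beside 0.02 over all tested genes. A positive value was found in 52.5% of all tested genes. No member was called by edgeR, 4 of 8 had an unadjusted p under 0.05 (8.9% of all tested genes), 2 were called higher by DESeq2 (1.84% of all), and 2 lay above AN1 without overlap (2.44% of all). The median was 0.91 without AN0-1 and AN2-3, again with 8 of 8 positive. The members did not share 1 pattern, since 5 of 8 were above AN1 in AN2 and 8 of 8 in AN0. The nitrate reductase gene NR3 had 25.8, 13.5 and 19.4 CPM in AN0, 0.878, 1.43 and 0.213 CPM in AN2, and 2.26, 3.04 and 1.71 CPM in AN1. Its AN0 libraries were all above AN1 and its AN2 libraries all below, so the mean log2 fold change of 0.79 ± 0.49 (edgeR adjusted p = 0.714) describes neither extreme. The nitrite reductase gene NIR had 12.5, 8.72 and 2.83 CPM in AN0, 0.415, 0.434 and 0.694 CPM in AN2, and 1.08, 0.633 and 0.221 CPM in AN1. The AN0 libraries were above AN1 while the AN2 libraries overlapped with it. The more abundant of the glutamine synthetase genes (LOC102596783) had 219, 203 and 210 CPM in AN0, 152, 116 and 195 CPM in AN2, and 172, 139 and 167 CPM in AN1. Its AN0 libraries were all above AN1 and its AN2 libraries overlapped with AN1, and the log2 fold change was 0.18 ± 0.21, with 0.41 ± 0.24 in AN0 and -0.04 ± 0.24 in AN2. The less abundant one (LOC102603663) had its AN0 libraries, 8.59, 7.66 and 4.77 CPM, above the highest AN1 library of 3.98 CPM, overlapped with AN1 in AN2, and had a mean log2 difference of 1.21 ± 0.62.

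Signalling and growth regulators made up a further group. PLC1, a phospholipase C that splits membrane phosphoinositides, had 24.3, 22.9 and 16.1 CPM in AN0, 24.7, 15.6 and 36.3 CPM in AN2, and 8.11, 7.73 and 7.71 CPM in AN1. Every library of the extremes was well above the AN1 libraries, which lay within a narrow range. The log2 fold change was 1.56 ± 0.28 (SE), 1.43 in AN0 and 1.70 in AN2, with an edgeR adjusted p of 0.179 and a DESeq2 adjusted p of 3.26e-05. PLC1 was the other named gene that DESeq2 called at both extremes, with adjusted p of 0.0017 in AN0 and 3.6e-05 in AN2. The related genes plc2 (LOC102602093) and plc3 (LOC102588383) had log2 fold changes of 0.46 ± 0.34 and 0.83 ± 0.40 and overlapped with AN1. POTH15, a KNOX homeobox factor of the kind that maintains shoot meristems, had 19.7, 21.7 and 16.3 CPM in AN0, 25, 29.6 and 26.5 CPM in AN2, and 15.2, 13 and 14.9 CPM in AN1. Its groups did not overlap, and the AN2 libraries were the highest. The fitted log2 fold change was 0.66 ± 0.17 (SE), with an edgeR adjusted p of 0.299 and a DESeq2 adjusted p of 0.0124. It was made of 0.42 ± 0.19 in AN0, where AN0-3 was little above AN1-1, and 0.91 ± 0.19 in AN2.

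**Figure D3:**
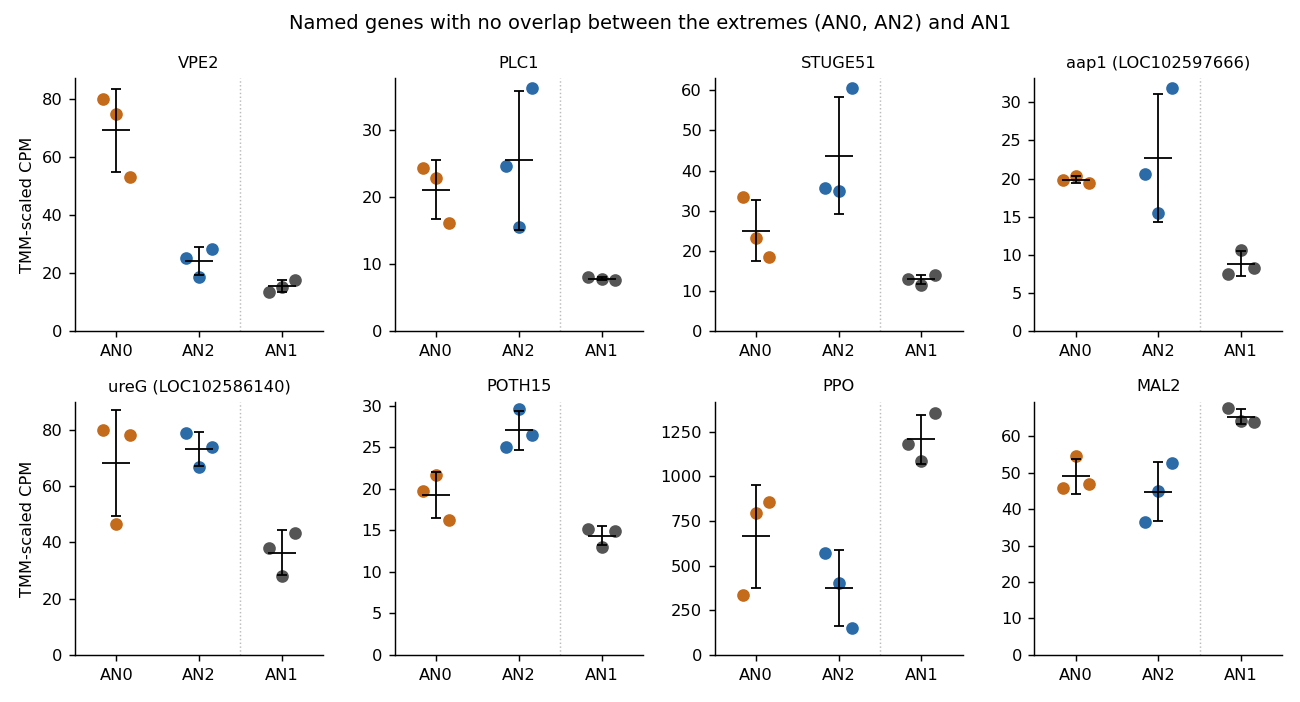
TMM-scaled CPM per library (points, linear axes from 0) of 8 named genes whose 6 AN0 and AN2 libraries do not overlap with the 3 AN1 libraries, with the mean and SD per treatment (n = 3 each). VPE2, PLC1, STUGE51, aap1, ureG and POTH15 lie above AN1 at both extremes, and PPO and MAL2 lie below it; none was called by edgeR for the extremes against AN1.

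STUGE51 encodes a UDP-glucose epimerase, which supplies UDP-galactose for cell wall polymers and galactolipids. It had 33.5, 23.3 and 18.4 CPM in AN0, 35.7, 34.9 and 60.5 CPM in AN2, and 13.1, 11.6 and 14 CPM in AN1. All libraries of the extremes were above AN1, and AN2-3 was the highest. The log2 fold change was 1.36 ± 0.27 (SE), with an edgeR adjusted p of 0.227, and 1.08 ± 0.17 without AN0-1 and AN2-3. With all libraries it was 0.96 ± 0.29 in AN0 and 1.76 ± 0.30 in AN2. VPE2, a vacuolar processing enzyme that cleaves proteins in the vacuole, had 80.1, 74.7 and 53 CPM in AN0, 25.3, 18.8 and 28.2 CPM in AN2, and 13.6, 15.4 and 17.6 CPM in AN1. Both extremes were above AN1, the AN0 libraries by far the most. Its log2 fold change was 1.39 ± 0.22 (SE), with an edgeR adjusted p of 0.158, made of 2.16 in AN0 and 0.63 in AN2. The isovaleryl-CoA dehydrogenase gene ivd1 (LOC102589539), for a mitochondrial enzyme of leucine breakdown, had 0.942, 0.631 and 0.656 CPM in AN0, 1.37, 0.745 and 5.18 CPM in AN2, and 0.23, 0.0633 and 0.221 CPM in AN1. The groups did not overlap, but the level was low and AN2-3 stood far above the other libraries. Its log2 fold change of 2.94 ± 0.77 (edgeR adjusted p = 0.312) was 2.25 ± 0.65 without AN0-1 and AN2-3.

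Some of the genes with the smallest p owed their place to 1 extreme. HPL, a hydroperoxide lyase that makes leaf aldehydes from oxidised fatty acids, had 27.6, 24.3 and 23.2 CPM in AN0, 8.1, 7.32 and 8.72 CPM in AN2, and 9.65, 7.35 and 9.48 CPM in AN1. It was high in AN0, and the AN2 libraries overlapped with AN1. Its mean difference of 0.69 ± 0.17 on the log2 scale (edgeR adjusted p = 0.300) combined 1.50 in AN0 with -0.13 in AN2. The gene pp34 (LOC102577743) had 60.8, 48 and 45.5 CPM in AN0, 101, 129 and 182 CPM in AN2, and 49, 31.7 and 49.8 CPM in AN1. It was high in AN2, while AN0 overlapped with AN1, and its log2 fold change was 0.95 ± 0.25 (edgeR adjusted p = 0.317).

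Several of these genes were called by edgeR at 1 extreme. VPE2 rose in AN0 (adjusted p = 0.0418, log2 fold change 2.16 ± 0.24). In AN2, STUGE51 rose (adjusted p = 0.0428), as did pp34 (0.0447) and PLC1 (0.0492). STBRC1B, a BRANCHED1 factor of buds, rose there too (adjusted p = 0.0372), as did TSF, whose symbol other genes share as a synonym (adjusted p = 0.0492). No such call was kept in every leave-one-out. The VPE2 call was lost without AN0-1, AN0-2, AN2-1, AN1-1, AN1-2 or AN1-3, with an adjusted p between 0.111 and 0.289. These 5 AN2 calls were lost without AN0-2, AN2-1, AN2-3, AN1-1, AN1-2 or AN1-3, with the highest adjusted p of 0.243 for TSF. Those of PLC1 and TSF were also lost without AN0-1, at 0.0559 and 0.0563, and those of PLC1 and pp34 without AN0-3, at 0.0549 for both. Without AN0-1 and AN2-3 together the adjusted p was 0.0818 for VPE2 in AN0 and lay between 0.0519 for STUGE51 and 0.0837 for TSF in AN2.

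Further named genes were called by DESeq2 but not by edgeR. DXS1, the first enzyme of the plastid isoprenoid pathway, had 60.9, 36.4 and 72 CPM in AN0, 34.4, 14.6 and 59.7 CPM in AN2, and 10.4, 15.3 and 18.3 CPM in AN1. Of the 6 libraries of the extremes, AN2-2 was the 1 that overlapped with AN1. For the extremes against AN1 it was 1.62 ± 0.44 on the log2 scale, with an edgeR adjusted p of 0.330 and a DESeq2 adjusted p of 0.0129. PAIN-1, the vacuolar invertase that splits sucrose, had 209, 94.7 and 18.9 CPM in AN0, 50.7, 34.9 and 208 CPM in AN2, and 20.2, 17.9 and 28.2 CPM in AN1. Its highest values were in AN0-1 and AN2-3, the libraries with the highest photosynthesis sums, and without these its log2 fold change was 1.16 ± 0.48 in place of 2.21 ± 0.80. The share of the green tissue signal in this difference was not tested. The lipoxygenase gene POTLX-3 and the CONSTANS-type gene CO had their highest values in AN0, with log2 fold changes of 3.41 and 6.03 there and 1.44 and 1.82 in AN2. CO had at most 0.317 CPM in each AN1 library and 0.298 CPM in AN0-3, so its fitted values depend on the handling of low counts and on 2 AN0 libraries. The phosphate transporter gene PT1 was the 1 named gene called lower by DESeq2 (adjusted p = 0.0431). It had 99.5, 77.6 and 73.6 CPM in AN0, 37.3, 31.3 and 51.4 CPM in AN2, and 94.8, 88.2 and 90.8 CPM in AN1, so the AN2 libraries were low and AN0 overlapped with AN1.

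Among the 451 named genes, 5 (1.11%) had all libraries of the extremes below AN1, and 15 (3.33%) had all of them above it. Over all tested genes these shares were 1.64% and 2.44%, so the named genes were close to them. The polyphenol oxidase gene PPO, whose product browns cut tubers, had 335, 797 and 857 CPM in AN0, 573, 401 and 151 CPM in AN2, and 1182, 1084 and 1355 CPM in AN1. All 6 libraries of the extremes were below the AN1 range, with AN0-1 and AN2-3 the lowest of their treatments. The log2 fold change was -1.28 ± 0.42 (SE), with an edgeR adjusted p of 0.411, and -0.92 ± 0.22 without AN0-1 and AN2-3. MAL2 had 45.7, 54.5 and 46.8 CPM in AN0, 36.5, 45 and 52.7 CPM in AN2, and 67.8, 64.3 and 64 CPM in AN1. Both extremes were modestly below the AN1 level, with a log2 difference of -0.48 ± 0.16 and an edgeR adjusted p of 0.429. The other genes below AN1 without overlap were CDPK7 (LOC102596332), a calcium-dependent protein kinase, GLDH, the last enzyme of ascorbate synthesis, and CGS2, a cystathionine gamma-synthase of methionine synthesis. Their log2 fold changes were -0.37 ± 0.18, -0.29 ± 0.15 and -0.29 ± 0.17, with unadjusted edgeR p of 0.0657, 0.0891 and 0.121. The margins were small. CDPK7 had 39.3 CPM in AN2-2 beside 39.7 CPM in AN1-3, GLDH 40.8 CPM in AN0-2 beside 42.7 CPM in AN1-3, and CGS2 104 CPM in AN2-3 beside 106 CPM in AN1-3.

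The genes known by number alone held the smallest p-values of the contrast, and 2 in each direction were picked after their values were seen. They were taken by p among those without overlap with AN1 and with a mean of at least 5 CPM. Their separation from AN1 was thus a condition of the choice. LOC102605981 had 15.5, 13.4 and 14 CPM in AN0, 24, 15.7 and 24.6 CPM in AN2, and 4.23, 1.93 and 4.06 CPM in AN1. All its libraries at the extremes were well above the highest AN1 library, and its log2 fold change was 2.36 ± 0.31 (edgeR adjusted p = 0.154). LOC107061923 averaged 89.7 ± 6.57 CPM in AN0, 156 ± 32.9 CPM in AN2 and 42.4 ± 5.7 CPM in AN1 (SD, n = 3 each), a log2 fold change of 1.48 ± 0.20. On the lower side, LOC102604222 had 88.6, 95.5 and 53.6 CPM in AN0, 64.7, 93.8 and 62.1 CPM in AN2, and 351, 231 and 205 CPM in AN1. All libraries of the extremes were below the lowest AN1 library. The difference was -1.78 ± 0.26 on the log2 scale (edgeR adjusted p = 0.158), with -1.73 in AN0 and -1.84 in AN2. LOC102589228 averaged 8.87 ± 0.986 CPM in AN0, 5.82 ± 0.243 CPM in AN2 and 16.5 ± 3.15 CPM in AN1 (SD, n = 3 each), a log2 fold change of -1.20 ± 0.18. The RefSeq gene table used here gives these 4 genes no name.

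**Figure D4:**
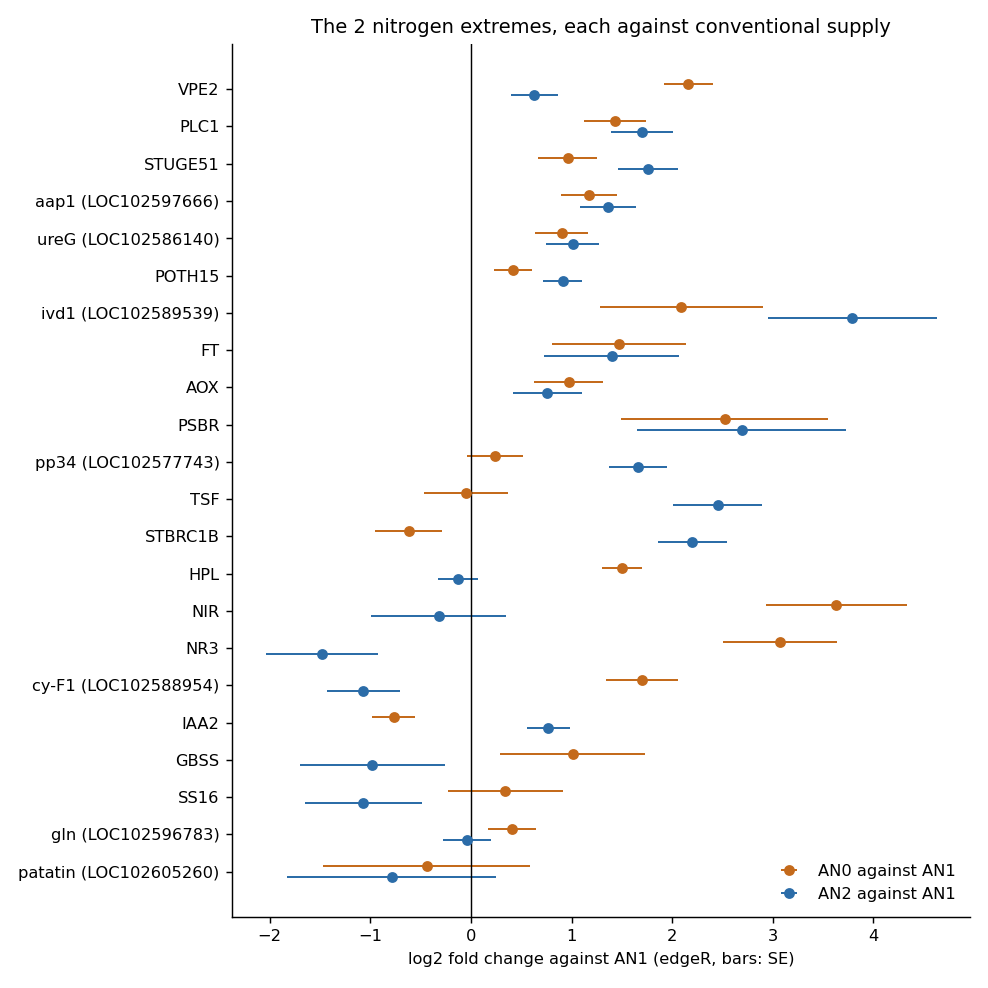
Log2 fold change against AN1 of 22 named genes in AN0 and in AN2 (points, edgeR; bars are the SE). PLC1, aap1 and ureG have nearly equal values in both treatments, pp34 and TSF are higher in AN2 than in AN0, and NR3, STBRC1B, cy-F1 and IAA2 lie on opposite sides of 0.

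In abscisic acid synthesis and signalling, 10 of 12 tested genes had a positive log2 fold change, with a median of 0.46 (0.49 without AN0-1 and AN2-3, with 11 of 12 positive). No member was called by edgeR or DESeq2, 3 of 12 had an unadjusted p under 0.05 (8.9% of all tested genes), and these 3 lay above AN1 without overlap (2.44% of all). The zeaxanthin epoxidase gene ZEP (LOC102592281), early in abscisic acid synthesis, had 79.1, 39.5 and 30.5 CPM in AN0, 37.8, 25.5 and 54.1 CPM in AN2, and 14.2, 23.6 and 22.4 CPM in AN1. Its lowest library of the extremes, AN2-2, was just above the AN1 range, and its log2 fold change was 1.14 ± 0.37 (edgeR adjusted p = 0.410). Its highest values were in AN0-1 and AN2-3, and without these the log2 fold change was 0.74 ± 0.24. SnRK2.3 (LOC102599363), a kinase of the family that abscisic acid activates, had 64, 69.7 and 51 CPM in AN0, 53.7, 42 and 59.4 CPM in AN2, and 40.1, 30.3 and 39 CPM in AN1. The groups stood apart by a small margin at AN2-2, and the log2 fold change was 0.63 ± 0.19 (edgeR adjusted p = 0.381). SnRK2.6 (LOC102599466) averaged 5.44 ± 1.37 CPM in AN0, 13.6 ± 11.9 CPM in AN2 and 3.76 ± 0.412 CPM in AN1 (SD, n = 3 each), where AN2-3 alone had 27.3 CPM. Its log2 fold change was 1.19 ± 0.49, and 0.73 ± 0.27 without AN0-1 and AN2-3. The synthesis gene nced1 (LOC102577783) was on the other side of AN1 in AN0, with log2 fold changes of -0.18 in AN0 and 1.73 in AN2.

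Among regulators of tuberization, flowering and meristems, 18 of 23 tested genes had a positive log2 fold change, with a median of 0.65 (0.47 without AN0-1 and AN2-3, with 17 of 23 positive). Of these, 6 were higher and 1 lower at an unadjusted p under 0.05, where 6.02% and 2.87% of all tested genes were. DESeq2 called 2 higher (CO and POTH15), beside 1.84% of all, and 1 of 23 did not overlap with AN1, close to the 4.08% of all. The florigen gene FT had 1.55, 1.32 and 2.95 CPM in AN0, 3.22, 1.43 and 0.88 CPM in AN2, and 1.28, 0.348 and 0.47 CPM in AN1. It was low everywhere, AN2-3 overlapped with AN1, and the log2 fold change was 1.44 ± 0.61 (edgeR adjusted p = 0.535), 1.47 in AN0 and 1.40 in AN2. The BRANCHED1 gene STBRC1B, which holds back bud outgrowth, had 3.44, 2.64 and 2.83 CPM in AN0, 26.9, 12.5 and 23.4 CPM in AN2, and 3.22, 5.16 and 5.33 CPM in AN1. It was high in AN2, with a log2 fold change of 2.20, and -0.62 in AN0. The paralogous gene STBRC1A was low but on 1 side of AN1 by its means, 2.1 CPM in AN0, 2.69 CPM in AN2 and 0.851 CPM in AN1, with a log2 fold change of 1.48 ± 0.71 and overlap between libraries. GA2OX1, which inactivates gibberellins, averaged 6.48 CPM in AN0, 8.57 CPM in AN2 and 20.8 CPM in AN1, with a log2 fold change of -1.48 ± 0.97.

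Other lists had raised medians, some of them at 1 extreme. In lipoxygenase and jasmonate metabolism, 8 of 9 tested genes were positive with a median of 0.69, made of a median of 1.50 in AN0 and -0.15 in AN2. Without AN0-1 and AN2-3 it was 0.38, again with 8 of 9 positive. Pathogenesis-related and defence genes were positive in 11 of 14, with a median of 0.73 (0.78 in AN0 and 0.53 in AN2). Of the 13 still tested without AN0-1 and AN2-3, 10 were positive, with a median of 0.61. Phenylpropanoid and flavonoid genes were positive in 9 of 12, with a median of 0.50, but 6 of the 10 genes still tested without AN0-1 and AN2-3 were positive, with a median of 0.12. Of the 4 alternative respiration genes 3 were positive, with a median of 0.55 (0.40 without AN0-1 and AN2-3). That median was made of 0.12 in AN0, with 2 of 4 positive, and 0.75 in AN2, with 3 of 4 positive. The alternative oxidase gene AOX, which bypasses part of the respiratory chain, had 104, 70 and 72.7 CPM in AN0, 69.2, 43.8 and 99.7 CPM in AN2, and 56.1, 32.7 and 37 CPM in AN1. Among these libraries AN2-2 fell inside the AN1 range, and the log2 fold change was 0.86 ± 0.30 (edgeR adjusted p = 0.442). Its highest values were in AN0-1 and AN2-3, and without these the log2 fold change was 0.61 ± 0.25. The external NAD(P)H dehydrogenase gene ndb1 (LOC102591773) averaged 38.8 ± 8.51 CPM in AN0, 43.5 ± 11.7 CPM in AN2 and 25.8 ± 3.44 CPM in AN1 (SD, n = 3 each). Its libraries at the extremes ranked above AN1 but without a clear gap, since AN0-3 and AN1-2 both rounded to 28.9 CPM. The log2 fold change was 0.67 ± 0.23 (edgeR adjusted p = 0.442).

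Of 15 tested genes of sucrose metabolism and transport, 2 lay above AN1 without overlap, beside 2.44% of all tested genes. The sucrose transporter gene SUT1 (LOC102594012), which loads sucrose into the phloem, had 137, 136 and 174 CPM in AN0, 198, 125 and 263 CPM in AN2, and 94.8, 98.8 and 122 CPM in AN1. AN2-2 was only just above AN1-3, and the log2 fold change was 0.70 ± 0.26 (edgeR adjusted p = 0.473). SPP2, a sucrose phosphatase at the end of sucrose synthesis, averaged 62 ± 6.45 CPM in AN0, 54.3 ± 1.76 CPM in AN2 and 45.8 ± 2.07 CPM in AN1 (SD, n = 3 each), a log2 fold change of 0.34 ± 0.15. Over the 15 genes the median was 0.07, with 10 positive. The cytokinin oxidase gene CKX5, which degrades cytokinin, averaged 3.22 ± 2.44 CPM in AN0, 2.84 ± 1.64 CPM in AN2 and 0.786 ± 0.325 CPM in AN1 (SD, n = 3 each) without overlap. The level was low and the margin small, with 1.07 CPM in AN0-3 beside 0.995 CPM in AN1-3. The log2 fold change of CKX5 was 1.94 ± 0.64. The related genes CKX4 and CKX3 went the other way, with log2 fold changes of -0.96 ± 0.41 and -0.78 ± 0.56, and overlapped with AN1. The dehydrin-type gene ERD10C (LOC102589834), a cold and drought protein, also did not overlap, with a log2 fold change of 0.59 ± 0.28 and AN1 libraries of 618, 355 and 630 CPM. Its AN0 libraries, at 650, 646 and 648 CPM, were close to AN1-1 and AN1-3. Against AN1 the log2 fold change was 0.28 ± 0.32 in AN0 and 0.90 ± 0.32 in AN2.

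On the lower side, all 8 tested genes of glycoalkaloid and sterol synthesis had a negative log2 fold change, with a median of -0.41 (-0.66 in AN0, -0.41 in AN2). Over all tested genes 52.5% were positive. The members were not all lower at each extreme, since 3 of 8 were above AN1 in AN0 and 1 of 8 in AN2. For the extremes together no member was called by edgeR or DESeq2. The gene sgt1 (LOC102602977), which adds galactose to solanidine, was the 1 member with an unadjusted p under 0.05, where 2.87% of all tested genes were lower. It had 21.9, 38.7 and 26.7 CPM in AN0, 97.1, 22.8 and 56.8 CPM in AN2, and 88.5, 71.5 and 68.5 CPM in AN1, so the AN0 libraries were low and AN2 overlapped with AN1. Without AN0-1 and AN2-3 the 8 genes were again all negative, with a median of -0.46. The 3 D-type cyclin genes, which drive entry into the cell cycle, were also all negative with a median of -0.47, but 1 of 3 was positive without those libraries. Translation genes were negative in 11 of 12 with a median of -0.13, and positive in 10 of 12 without AN0-1 and AN2-3. Mitochondrial respiration genes were negative in 13 of 16 with a median of -0.10, and without those libraries 7 of 16 were positive, with a median of -0.04.

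**Figure D5:**
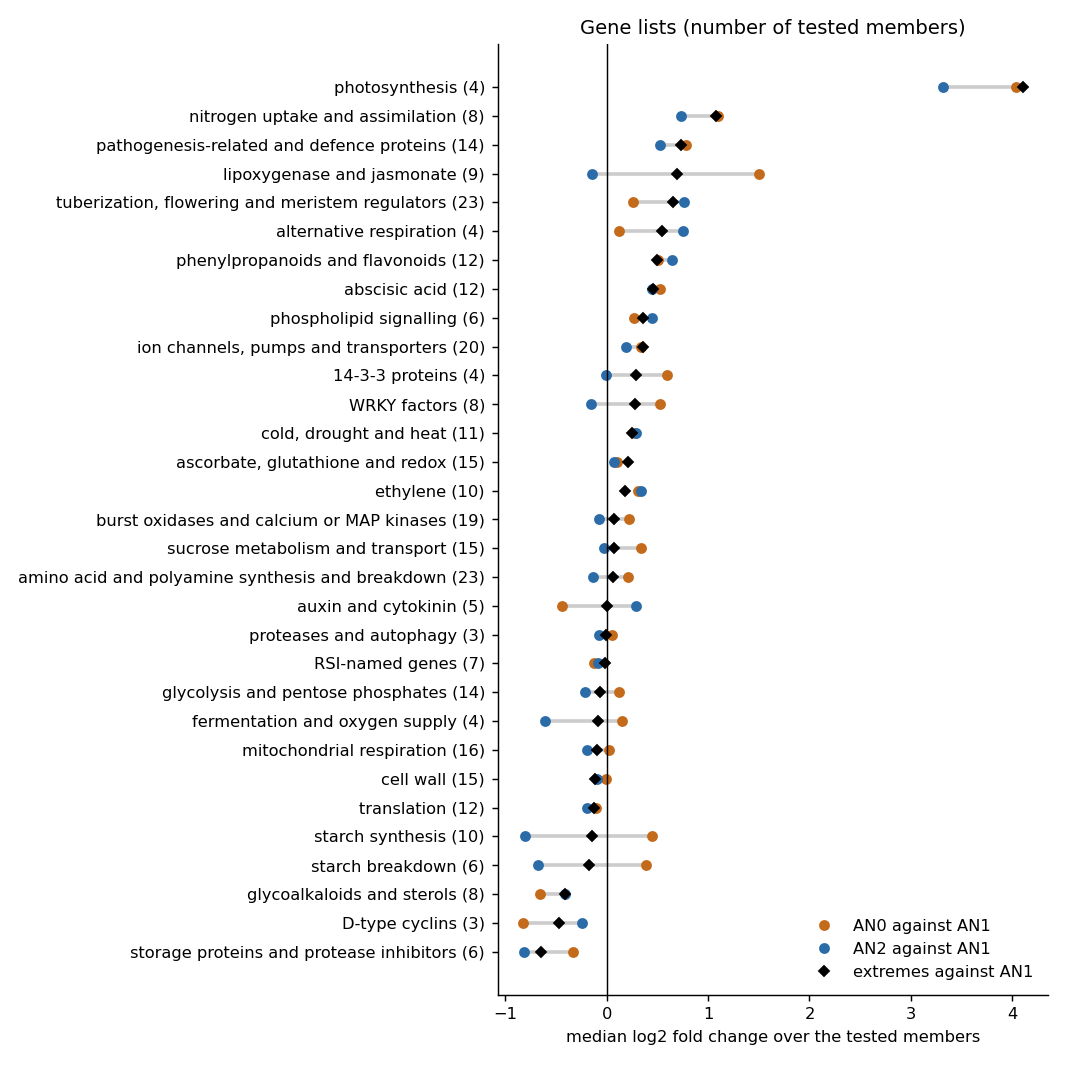
Median log2 fold change over the tested members of 31 gene lists, for AN0 against AN1, AN2 against AN1 and the extremes together against AN1, with the number of tested members in brackets. Nitrogen uptake, abscisic acid and defence genes have medians above 0 in both treatments, glycoalkaloid and sterol genes below 0 in both, and starch genes have opposite signs; the photosynthesis median of 4.11 is -0.07 without AN0-1 and AN2-3.

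Starch genes had medians of opposite sign at the extremes. Of the 6 storage genes, 5 were below every AN1 library in AN0-1, AN2-1 and AN2-3. These libraries were noted above for low sums of the same 6 genes, so this is not a separate result. The 10 starch synthesis genes had a median of -0.15 for the extremes together, from 0.45 in AN0 and -0.81 in AN2. Without AN0-1 and AN2-3 the sign turned, to a median of 0.19 with 6 of 10 positive. The granule-bound starch synthase gene GBSS had 3735, 5466 and 7300 CPM in AN0, 1957, 2020 and 187 CPM in AN2, and 2091, 2770 and 3328 CPM in AN1. Its AN0 libraries were above AN1 and its AN2 libraries below, and the log2 fold change for the extremes together was 0.02 ± 0.62. Without AN0-1 and AN2-3, it was 0.40 ± 0.26. Patatin (LOC102605260) had 3516, 13487 and 19688 CPM in AN0, 8963, 19509 and 400 CPM in AN2, and 15824, 16536 and 17586 CPM in AN1. The AN1 libraries were close together and the extremes lay on both sides of them. Its log2 fold change was -0.62 ± 0.87 (edgeR adjusted p = 0.932) and -0.10 ± 0.34 without AN0-1 and AN2-3. The 6 storage protein and inhibitor genes had a median of -0.65, and -0.12 without those libraries, which had been singled out partly by these genes. The other gene, the proteinase inhibitor gene PIN-II (LOC102577839), had 120, 438 and 465 CPM in AN0, 649, 480 and 841 CPM in AN2, and 530, 210 and 329 CPM in AN1, highest in AN2-3 and lowest in AN0-1. Several genes share the patatin, inhibitor and lipoxygenase names, and how the counting split reads among similar copies is not known.

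The 4 tested photosynthesis genes had the highest median of all 31 lists, 4.11, and it rested on AN0-1 and AN2-3. Without these the median was -0.07 and 2 of 4 were positive. Both libraries had been singled out partly by their photosynthesis sums, so a fall of the median largely follows from that choice. PSBR, a subunit of photosystem II, had 279, 80.4 and 22.6 CPM in AN0, 60.4, 69.8 and 299 CPM in AN2, and 9.52, 10.4 and 46.5 CPM in AN1. The highest values were in AN0-1 and AN2-3, and AN0-3 overlapped with AN1-3. Its log2 fold change was 2.61 ± 0.97 (edgeR adjusted p = 0.476) and 1.38 ± 0.65 without those libraries. Of the 7 genes, 5 were at 0 in AN0-3, 4 in AN2-2 and 3 in AN1-1. The Rubisco small subunit gene RBCS-C had 7.37 CPM in AN0-1 and 22.6 CPM in AN2-3, and at most 0.276 CPM in the other libraries. In RNA from whole tissue, fewer cells of a type and less RNA per cell cannot be told apart.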

How the data were processed

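RNA was sequenced from 9 stolon libraries, 3 per nitrogen treatment, per the labels, from TRIzol RNA and a VAHTS Universal V6 kit. The deposited counts are whole numbers of reads for each gene, with no normalization, as the file's values show. The authors' FPKM table equals count divided by gene length and library total (largest relative difference 1.71e-07). Tools listed in the submitters' processing notes are HISAT2, HTSeq, fastp, DESeq2 and R 3.2.0, without settings. Genome build, annotation and strand setting: not given in the sources used here. For that reason no coordinates are printed, and overlapping or antisense genes cannot be told apart.

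Counts were tested with edgeR 4.0.16 in R 4.3.3 (TMM, filterByExpr, robust quasi-likelihood F test, 1 mean per treatment, 6 residual degrees of freedom, common biological coefficient of variation 0.417), with Benjamini-Hochberg adjustment over all 21223 tested genes. The contrast weighted AN0 and AN2 by 0.5 each. Standard errors were computed from the F statistic and the fold change. Alternatives were DESeq2 1.42.0 (no adjusted p for 132 genes), limma 3.58.1 (voom with quality weights, and log2(FPKM + pseudocount) for genes with FPKM of at least 1 in 3 libraries), RLE factors, no filter, a replicate block, a 2-group design and left-out libraries. The script was tested on simulated data. No pair of libraries of a treatment agreed within sampling noise (chi-square per gene of at least 38.3).

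Names came from the RefSeq gene table of SolTub_3.0 (25672 of 25702 IDs matched, 477 with a name). The treatment contrast, 31 gene lists (347 memberships, 326 tested) and named genes were chosen with earlier results of these data known. The text names 9 of the 10 named genes with the smallest p (1 is not reported here), since none was called, 13 anchors, and 5 named genes with opposite signs at the extremes and the smallest p for AN2 against AN0. Other genes were named for a DESeq2 call or for no overlap, or as list members, after their values were seen.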

Additional observations from a re-analysis of the deposited data

Results flagged for a closer look

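Of the genes named by p, as anchors or for opposite signs at the extremes, 9 differed between the extremes by the edgeR test of AN2 against AN0, so their effects against AN1 were not the same in both treatments. Higher in AN2 were STBRC1B (log2 fold change 2.82, adjusted p = 0.00762), TSF (2.50, 0.0241), the auxin-response repressor IAA2 (1.54, 0.00975) and LOC102577743 (pp34; 1.42, 0.0319). Lower in AN2 were NR3 (-4.55, 0.00965), NIR (-3.95, 0.0244), LOC102588954 (cy-F1, a cytosolic fructose-1,6-bisphosphatase; -2.77, 0.00965), HPL (-1.64, 0.00762) and VPE2 (-1.52, 0.016). NR3, STBRC1B, HPL, cy-F1 and IAA2 were picked by this test among genes of opposite sign, so their p is not independent of the choice. IAA2 shows how the mean of both extremes can hide such a pair: it averaged 16.2 ± 2.63 CPM in AN0, 47 ± 8.62 CPM in AN2 and 27.6 ± 1.98 CPM in AN1 (SD, n = 3 each), and its log2 fold change for the extremes together was 0.00 ± 0.18. The calls of NR3, HPL, STBRC1B, cy-F1 and IAA2 held in each leave-one-out. The VPE2 call was lost without AN0-2 (adjusted p up to 0.0654) or AN2-1, that of TSF without AN0-1, AN0-2 or AN2-1 (up to 0.0692), and that of NIR without AN0-1, AN0-2, AN2-1 or AN2-3 (up to 0.0946). The pp34 call was lost without any library but AN2-2 and AN1-2 (up to 0.12).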

How the results depend on the processing

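With 3 libraries per treatment, the median standard error was 0.32 for the extremes against AN1. In edgeR even a log2 fold change of 2.36 ± 0.31 (LOC102605981) was not called. The count of genes called for this contrast depended on the tool, and the cause of that was not tested. That count was 0 in each other setting, 488 in DESeq2 and 1274 in voom. For AN0 against AN1 the counts were 679 in DESeq2, 1027 in voom, 25 and 3 on FPKM with pseudocounts 1 and 0.1, 0 without AN0-1 and AN2-3, and 0 to 109 in leave-one-out. For AN2 against AN1 they were 1275, 5260, 384, 280, 15 and 0 to 367 in the same order. The comparison of AN2 with AN0 gave 2784 in DESeq2, 5882 in voom, 296 without both libraries and 110 to 1077 in leave-one-out. Genes called at both extremes in 1 direction were 99 in DESeq2, 228 in voom, 3 on FPKM with pseudocount 1 (LOC102589424, LOC102592537 and LOC107059739) and 0 to 2 in leave-one-out. Non-overlapping counts, an alternative chosen after seeing the data, were 875 above and 844 below without both libraries, and 597 to 866 and 454 to 699 in leave-one-out.

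Same-numbered libraries did not deviate together (r between -0.472 and 0.083 over 9 pairs, with 2 of 9 libraries correlating best with their own number). With the replicate block edgeR called 0 genes for the extremes against AN1, 0 in AN0 and 5 in AN2 against AN1, and 166 between AN2 and AN0.

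The sign of 2 log2 fold changes reversed. GBSS (0.02) was -0.20 on FPKM with either pseudocount, 0.40 without AN0-1 and AN2-3, -0.02 with the replicate block, and between -0.17 and 0.28 in leave-one-out, where it was negative without AN0-3 (-0.11), AN2-1 (-0.15), AN2-2 (-0.17) or AN1-1 (-0.14). SS16 (-0.37) was 0.05 in voom and 0.0077 without AN0-1 and AN2-3. Over all single-gene results and alternatives, 941 kept their direction and side of the threshold, 44 passed it where the main result did not, and 131 no longer passed it. On FPKM the median over all genes shifted to 0.15 between AN2 and AN1 and 0.18 between AN2 and AN0 (pseudocount 1), beside 0.02 and 0.01 on counts.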
